A study of Mus musculus with 5 samples.

Results

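*Wnt4*, *Wnt2*, *Wnt5a*, *Wnt5b*, *Wnt6*, *Rspo1*, *Rspo3*, *Tnfsf11*, *Tnfrsf11a* and *Tnfrsf11b* encode secreted signals, and the receptor and decoy for one of them, that pass between neighbouring cells of the mammary gland. These 10 genes of the 27998 in the gene table were chosen by name, as the Wnt ligands, R-spondins and RANK system of the gland, and all 10 were found in each library. They were followed in 14317 cells of 5 single-cell RNA libraries from the mammary gland of ovariectomized BALB/cj mice aged 30 weeks. Each group was a single library, so no difference between groups could be set against a spread between animals.

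All mice had lost their ovaries 20 weeks before a treatment of 7 days, and the OVX library came from mice given the DMSO vehicle. OVX_E2 mice received daily intraperitoneal 17β-estradiol (E2) at 1 µg per animal. OVX_E2_P4 mice also received progesterone (P4) at 0.1 mg per animal. OVX_E2_PBDE and OVX_E2_P4_PBDE mice had the same injections and ate food with polybrominated diphenyl ethers (PBDEs, flame retardants), at 7.1 mg/kg of BDE-47, 0.9 mg/kg of BDE-153 and 0.4 mg/kg of BDE-100, while the other 3 groups ate matched food with DMSO. Glands were collected a day after the last injection. The number of mice pooled in each library is not given in the sources used here.

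Wnt ligands are lipid-modified proteins that act over short distances on Frizzled receptors and the co-receptors LRP5 and LRP6, and R-spondins raise the response by binding LGR receptors and keeping the E3 ligases RNF43 and ZNRF3 from removing Frizzled from the surface. RANK ligand, the product of *Tnfsf11*, binds its receptor RANK, the product of *Tnfrsf11a*, and turns on NF-κB, while osteoprotegerin, the product of *Tnfrsf11b*, is a soluble decoy that captures the ligand. In the mammary gland, luminal cells with estrogen and progesterone receptors are known to respond to progesterone with *Wnt4* and *Tnfsf11*, and the basal and alveolar cells beside them, which mostly lack those receptors, are known to proliferate in answer.

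The libraries held 19982067 to 42012988 unique molecular identifiers (UMIs, each a counted mRNA molecule) over 2233 to 3536 barcodes, with a median of 5345 to 8698 UMIs per barcode. Clusters were named by marker genes and are called X-like for that reason: 2540 cells were luminal hormone-sensing-like (L-Hor), 1051 luminal alveolar-like (L-Alv), 422 basal-like, 305 proliferating, 7250 fibroblast-like, 529 hematopoietic-like and 235 endothelial-like. A further 1962 barcodes with markers of both luminal classes were kept apart as mixed luminal. Levels are given as UMIs per 1000000 UMIs of the class (CPM). The 7 L-Hor markers summed to 5638 to 7851 CPM in L-Hor-like cells and to 286 to 448 in L-Alv-like cells. The L-Alv markers summed to 3678 to 5594 CPM in L-Alv-like cells and to 28.5 to 190 in L-Hor-like cells. Because the clusters were named by these same markers, the sums describe the classes and do not test the labels. OVX held 92 L-Hor-like cells, against 477 to 763 in the 4 libraries with E2, and it held 0 L-Alv-like cells, so *Wnt5b* and RANK were not compared between OVX and OVX_E2 in that class. At a clustering resolution of 1 OVX did have an L-Alv-like cluster, of 32 cells, under the minimum of 50 cells for a class. Any 2 libraries had 3 to 15 barcodes in common, at most 0.483% of the smaller library.

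Each level in CPM has an exact Poisson 95% interval, and ratios between libraries carry an exact conditional binomial 95% interval. These intervals cover counting error only. A ratio was called when it was at least 2-fold either way, its interval left out 1 and the pair of libraries held at least 50 UMIs, and such a call compares 2 libraries, not 2 conditions. The 5 comparisons share libraries, and the pair of PBDE libraries has library numbers of its own, so PBDE exposure and a library batch cannot be told apart.

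Promoters of 7 of the 10 genes, in 9 windows of 250 bases before to 50 bases after a transcription start, were read from the RefSeq promoter table on GRCm38.p6 to ask whether hormone receptor or TCF/LEF motifs stood in them. The windows of *Wnt4* and *Tnfsf11*, the best known progesterone-responsive genes of the group, and the pair of downstream *Wnt5b* starts, the only windows with a match, are shown here 5′ to 3′ on the gene's strand, with matches in capitals. They lie at chr4:137277385-137277684 (plus strand), chr14:78307994-78308293 (minus strand), chr6:119467162-119467461 (minus strand) and chr6:119449337-119449636 (minus strand).
Wnt4: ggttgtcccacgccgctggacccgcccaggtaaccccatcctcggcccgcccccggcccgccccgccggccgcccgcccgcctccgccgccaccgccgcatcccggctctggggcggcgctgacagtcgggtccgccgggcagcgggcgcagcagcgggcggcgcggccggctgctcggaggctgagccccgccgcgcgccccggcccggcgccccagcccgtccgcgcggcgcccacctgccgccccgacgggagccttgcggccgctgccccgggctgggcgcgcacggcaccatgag
Tnfsf11: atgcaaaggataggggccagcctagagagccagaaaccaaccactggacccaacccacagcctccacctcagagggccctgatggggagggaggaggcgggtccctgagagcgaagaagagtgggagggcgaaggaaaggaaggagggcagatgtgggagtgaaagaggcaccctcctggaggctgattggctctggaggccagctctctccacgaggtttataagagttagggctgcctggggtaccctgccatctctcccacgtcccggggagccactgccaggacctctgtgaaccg
Wnt5b, middle start: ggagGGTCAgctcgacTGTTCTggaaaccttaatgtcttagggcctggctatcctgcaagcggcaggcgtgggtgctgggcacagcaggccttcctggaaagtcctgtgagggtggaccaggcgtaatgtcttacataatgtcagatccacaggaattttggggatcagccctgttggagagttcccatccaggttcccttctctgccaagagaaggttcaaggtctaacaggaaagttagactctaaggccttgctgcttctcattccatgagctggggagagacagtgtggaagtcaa
Wnt5b, last start: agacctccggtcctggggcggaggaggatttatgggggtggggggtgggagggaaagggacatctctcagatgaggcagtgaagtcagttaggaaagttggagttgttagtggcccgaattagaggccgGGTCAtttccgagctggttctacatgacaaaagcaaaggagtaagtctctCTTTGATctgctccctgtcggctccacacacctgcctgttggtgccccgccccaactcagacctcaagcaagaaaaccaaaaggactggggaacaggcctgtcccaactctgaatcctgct

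Of the motifs searched on both strands, the full estrogen response element GGTCANNNTGACC and the full steroid hormone response element GNACANNNTGTNC stood in 0 of the 9 windows, against 0.0700% and 0.475% of all 32851 windows in the table. The single arm GGTCA, which is contained in the full element, was found in both downstream *Wnt5b* windows, at -246 and -121 from the start, and stood in 40.5% of all windows. The single arm TGTTCT was found at -234 from the middle *Wnt5b* start and in 19.0% of all windows. The TCF/LEF letters CTTTGAT were found at -71 from the last *Wnt5b* start and in 3.73% of all windows. The *Wnt4* window held none of these letters and was 84.3% G and C, against a median of 52.7% over all windows, and the *Tnfsf11* window held none either, at 61.7%. A match is a description of these letters in a short window and not a bound site.

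*Wnt4*, the Wnt ligand known to act downstream of the progesterone receptor, was highest in L-Hor-like cells, with a mean of 62.5 CPM over the 5 libraries and a range of 40.8 to 82.1. Proliferating cells (18.7 to 24.6 CPM where a library had at least 50) and basal-like cells (4.21 to 24.7) overlapped in range. Both ranges lay below every L-Hor-like value. The 41 proliferating cells of OVX_E2_P4_PBDE are outside this range, and their level, given below, was above the lowest L-Hor-like value of 40.8 CPM. Of 4589 *Wnt4* UMIs, 33.5% fell in L-Hor-like cells and 51.3% in the mixed luminal barcodes, which carry L-Hor markers too. On GRCm38 *Wnt4* is at chr4:137277489-137299726 on the plus strand, with 5 exons in its principal transcript. After each cell was thinned to 3000 UMIs, *Wnt4* was seen in 12.6% to 21.8% of L-Hor-like cells by library, against 0.690% to 3.20% of L-Alv-like cells.

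*Wnt5a* (chr14:28504750-28527448, plus strand), a Wnt ligand known mostly for β-catenin-independent signalling, was also highest in L-Hor-like cells, at 33.6 to 70.7 CPM. Fibroblast-like cells held 13.7 to 18.8 CPM of *Wnt5a*, and 16.5% of its 4159 UMIs, beside 2.69 to 11.5 CPM of *Wnt4*. The *Wnt5a* range in proliferating cells, 24.6 to 59.7 CPM, overlapped that in L-Hor-like cells. In the thinned L-Hor-like cells *Wnt4* was seen in 17.9% of the 397 cells with a *Wnt5a* UMI and in 18.1% of the 2143 without, and these shares differed by less than their exact binomial intervals (14.2% to 22.0% and 16.5% to 19.8%). *Wnt4* was likewise seen in 19.3% of cells with a UMI of *Pgr*, the progesterone receptor, and in 17.5% of cells without, and the intervals overlapped in every library. *Wnt5a* was seen in 16.3% of cells with a *Pgr* UMI and 15.3% of cells without, over all libraries. In OVX_E2_PBDE alone the *Wnt5a* shares were 17.7% (12.4% to 24.0%) and 8.39% (5.95% to 11.4%), intervals that do not overlap, while in the other 4 libraries they overlapped. A *Pgr* UMI was seen in 779 of the 2540 thinned cells, and a cell without a UMI can still hold the transcript. Overlapping shares therefore cannot show whether *Wnt4*, *Wnt5a* and *Pgr* go together in a cell.

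*Wnt5b* (chr6:119432531-119544347, minus strand), the close relative of *Wnt5a*, was highest in a different luminal class. L-Alv-like cells held 61.0 to 120 CPM in the 4 libraries that had them, while L-Hor-like cells held 2.59 to 7.66 CPM, and these ranges did not overlap. After thinning, 16.8% to 35.2% of L-Alv-like cells had a *Wnt5b* UMI, against 0.984% to 2.23% of L-Hor-like cells. Of 5014 UMIs, 26.3% were in L-Alv-like cells, 50.7% in mixed luminal barcodes and 11.5% in fibroblast-like cells.

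*Wnt6* (chr1:74771892-74785322, plus strand), a canonical ligand of epithelia, was the basal ligand of the group. Basal-like cells held 9.73 to 42.1 CPM and 62.8% of its 231 UMIs, and the next class, hematopoietic-like cells, stayed at or below 3.17 CPM. *Wnt2* (chr6:17988940-18030585, minus strand), a canonical ligand known from mammary stroma, was the fibroblast ligand, with 108 to 158 CPM in fibroblast-like cells and 92.3% of its 6305 UMIs. Every other class of at least 50 cells had at most 34.0 CPM of *Wnt2*, the highest of them hematopoietic-like cells, in which 2 clusters, left unnamed, carried fibroblast genes among their leading genes. The plot by class shows this division of the ligands.

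**Figure D1:**
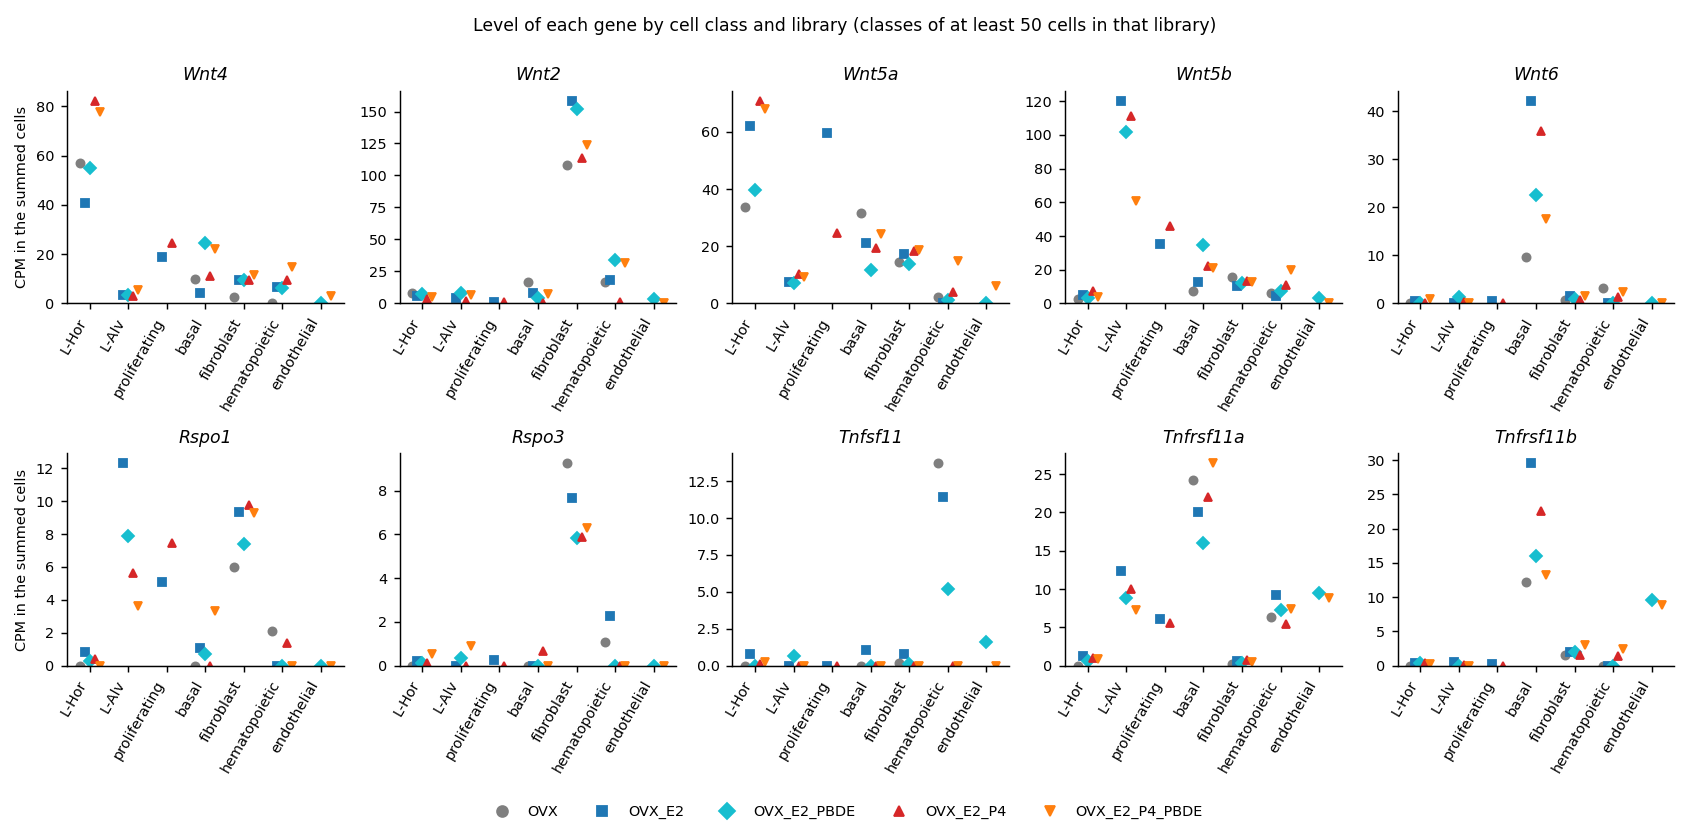
Level of each of the 10 genes (CPM, y axis) by cell class (x axis), with 1 point per library in classes of at least 50 cells of that library. *Wnt4* and *Wnt5a* peak in L-Hor-like cells, *Wnt5b* in L-Alv-like cells, *Wnt6*, *Tnfrsf11a* and *Tnfrsf11b* in basal-like cells, and *Wnt2* and *Rspo3* in fibroblast-like cells.

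R-spondins act on LGR receptors, and *Rspo1* and *Rspo3* differed in where they were found. *Rspo3* (chr10:29452416-29535867, minus strand) was a fibroblast gene: fibroblast-like cells held 94.7% of its 337 UMIs at 5.85 to 9.25 CPM, and L-Hor-like cells stayed at or below 0.548 CPM. *Rspo1* (chr4:124986430-125009099, plus strand), known as a luminal R-spondin of the gland, was found in fibroblast-like cells at 5.97 to 9.79 CPM and in L-Alv-like cells at 3.64 to 12.3 CPM, and those ranges overlapped. L-Hor-like cells held 0 to 0.797 CPM of *Rspo1*, with 9 UMIs in 2540 cells. Of its 688 UMIs, 49.6% were in fibroblast-like cells.

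Fibroblast-like cells fell into 4 clusters when the 5 libraries were clustered together, here called by their leading genes, and the stromal ligands were spread unevenly over them. *Rspo3* had its highest levels in the *Krtdap* and *Sbsn* cluster, at 36.4 CPM in OVX, 22.8 in OVX_E2, 22.1 in OVX_E2_P4, 17.5 in OVX_E2_PBDE and 19.1 in OVX_E2_P4_PBDE. That cluster held 38.6% of its UMIs, and the larger *Akr1c18* and *Cxcl13* cluster held 51.9% at a lower level of 4.6 to 10.7 CPM. *Rspo3* was at most 2.94 CPM in the *Cxcl14* and *Gas6* cluster and at most 1.69 CPM in the *Mfap4* and *Igfbp2* cluster. *Wnt5b* in the stroma had its highest levels in the same *Krtdap* and *Sbsn* cluster, at 24.5 to 37.1 CPM. *Wnt2* was found in all 4, from 38.8 to 71.5 CPM in the *Cxcl14* and *Gas6* cluster up to 135 to 230 CPM in the *Krtdap* and *Sbsn* cluster. The clusters were defined without the 10 genes, so their levels were not part of the definition.

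*Wnt4* was also counted in part of the stroma. In the *Mfap4* and *Igfbp2* cluster, whose leading genes include *Crabp1*, *Mdk* and *Cthrc1*, its level was 3.38 CPM in OVX, 32.6 in OVX_E2, 25.6 in OVX_E2_P4, 45.1 in OVX_E2_PBDE and 43.0 in OVX_E2_P4_PBDE. The other 3 fibroblast-like clusters held 1.43 to 6.32 CPM in every library. *Rspo1* in the *Mfap4* and *Igfbp2* cluster ran from 1.69 CPM in OVX to 13.5 to 23.0 CPM in the libraries with E2, and *Wnt6* had 31 of its 231 UMIs there. The summed level of the 7 L-Hor markers in that cluster, a measure of epithelial RNA, was 67.6 CPM in OVX, 204 in OVX_E2, 319 in OVX_E2_P4, 166 in OVX_E2_PBDE and 304 in OVX_E2_P4_PBDE, with 6 of 7 markers present in OVX and 7 of 7 in the others. Over the 5 libraries this sum was 103 to 320 CPM in the *Akr1c18* and *Cxcl13* cluster and 82.9 to 375 CPM in the *Cxcl14* and *Gas6* cluster. It was 92.5 to 294 CPM in the *Krtdap* and *Sbsn* cluster, and *Wnt4* in these clusters stayed at or below 6.32 CPM. The part of epithelial RNA in the *Wnt4* levels of fibroblast-like clusters was not tested.

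**Figure D2:**
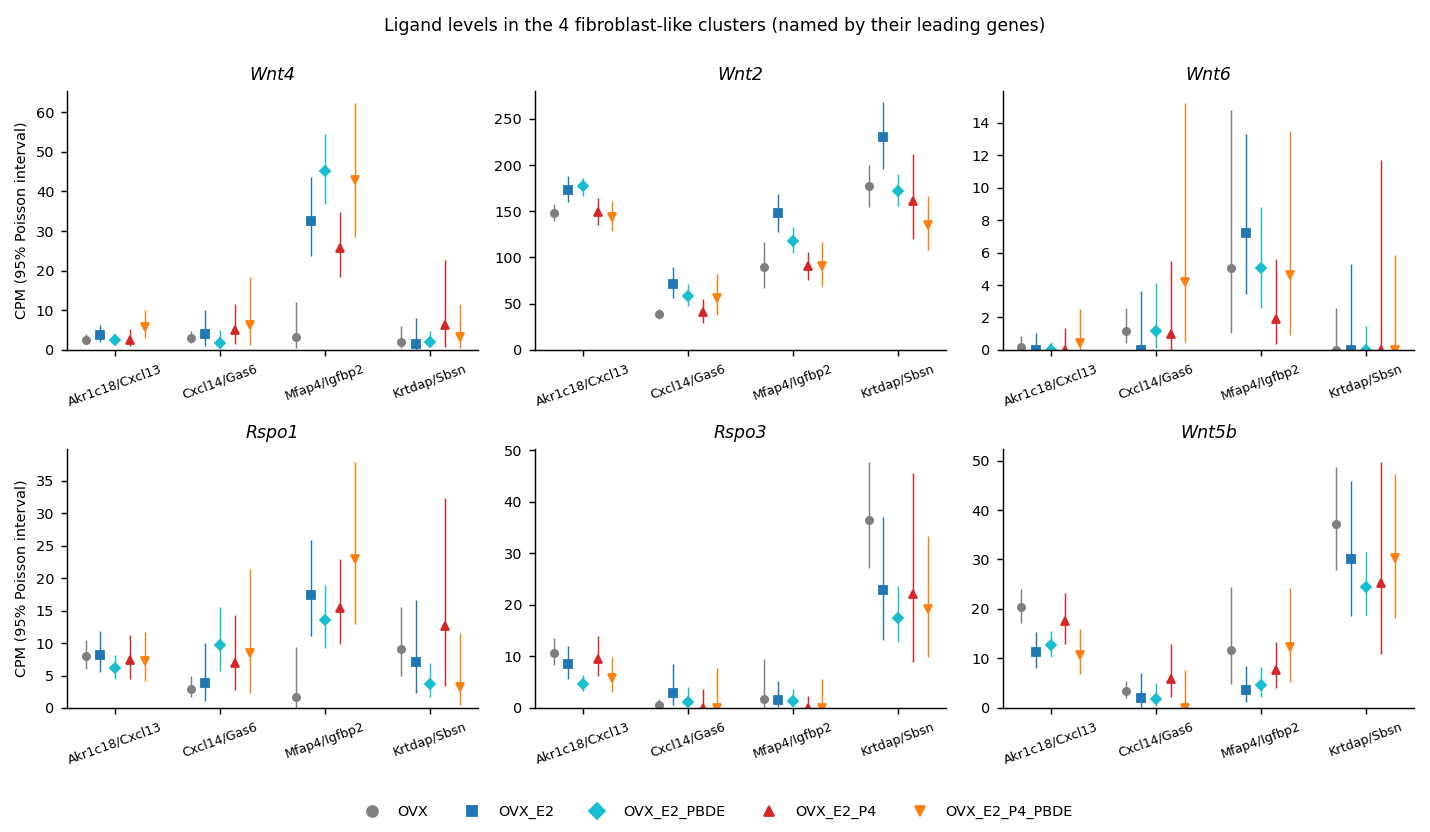
Levels of the stromal ligands (CPM, y axis) in the 4 fibroblast-like clusters (x axis, named by leading genes), 1 point per library with 95% Poisson intervals. *Rspo3* is highest in the *Krtdap* and *Sbsn* cluster, at 17.5 to 36.4 CPM against 4.6 to 10.7 in the *Akr1c18* and *Cxcl13* cluster, and *Wnt4* in the *Mfap4* and *Igfbp2* cluster, where OVX has 3.38 CPM and the 4 libraries with E2 have 25.6 to 45.1.

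The RANK system was measured most completely on the receiving side. Over classes of at least 50 cells, *Tnfrsf11a* (RANK, chr1:105780718-105847981, plus strand) had its highest mean in basal-like cells. Its level there was 24.3 CPM in OVX, 20.0 in OVX_E2, 22.0 in OVX_E2_P4, 16.0 in OVX_E2_PBDE and 26.4 in OVX_E2_P4_PBDE. L-Alv-like cells held 12.3 CPM in OVX_E2, 10.0 in OVX_E2_P4, 8.89 in OVX_E2_PBDE and 7.28 in OVX_E2_P4_PBDE. L-Hor-like cells held 0 to 1.19 CPM, with 20 UMIs in 2540 cells and a limit of 3.88 CPM for the 0 in OVX, so the transcript of the receptor was lower in L-Hor-like cells than in basal-like or L-Alv-like cells of every library that had the class. The thinned share of L-Alv-like cells with a *Tnfrsf11a* UMI was 0.976% to 8.28% and that of L-Hor-like cells 0 to 0.524%. *Tnfrsf11b* (osteoprotegerin, chr15:54250619-54278484, minus strand) was likewise highest in basal-like cells, at 12.2 to 29.5 CPM, and L-Hor-like cells stayed at or below 0.420 CPM. Endothelial-like cells held 8.89 to 9.52 CPM of *Tnfrsf11a*, and the same range of *Tnfrsf11b*, where a library had at least 50 of them. Only OVX_E2_PBDE (72 cells) and OVX_E2_P4_PBDE (58 cells) did. Without thinning, 6 and 3 of these cells had a *Tnfrsf11a* UMI. The numbers were 5 of 33 cells in OVX, 6 of 44 in OVX_E2 and 5 of 28 in OVX_E2_P4. Hematopoietic-like cells held 5.48 to 9.16 CPM of *Tnfrsf11a*. Fibroblast-like cells held 35.3% of the 235 *Tnfrsf11b* UMIs, at 1.53 to 3.01 CPM. Myeloid-like cells, the lineage of the RANK-bearing osteoclast, held 2 to 3 *Tnfrsf11a* UMIs in each library. This was 11.7 CPM in OVX, the 1 library with at least 50 myeloid-like cells.

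*Tnfsf11* (RANK ligand, chr14:78277445-78308043, minus strand) was barely counted at this depth. The 5 libraries held 44 UMIs in 28 barcodes, with 15 UMIs in OVX, 16 in OVX_E2, 11 in OVX_E2_PBDE and 1 in each library with P4. L-Hor-like cells, the class known to make the ligand after progesterone, held 6 of them in 4 barcodes, 4 UMIs in OVX_E2 and 1 in each library with P4. Of the 4 in OVX_E2, 3 came from 1 barcode that also held 13 UMIs of T and NK cell markers, and the other 3 L-Hor-like barcodes held 0 such UMIs. Hematopoietic-like cells held 23 UMIs in 10 barcodes, and 6 of those barcodes carried at least 3 UMIs of T and NK cell markers. Those in the T and NK-like cluster also held 1 to 16 UMIs of fibroblast markers, and those in unnamed clusters 13 to 346. The 5 hematopoietic-like UMIs of OVX_E2 came from 1 barcode, the one with 346. Whether such barcodes hold 1 cell or several was not tested. The libraries with P4 had 0 *Tnfsf11* UMIs in hematopoietic-like cells, where OVX had 13 and OVX_E2 had 5, and with a limit of 3 counts a 0 allows up to 4.11 CPM in OVX_E2_P4 and 7.36 CPM in OVX_E2_P4_PBDE. A rise of the ligand with progesterone was not detectable in these counts, from glands collected a day after the last injection. A low level in L-Hor-like cells cannot be told apart from none.

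The receiving side of the Wnt and R-spondin signals was described with 74 further genes of these pathways, all present in the table. Basal-like cells led for *Lgr4* and *Lgr6*, the R-spondin receptors, with means over the 5 libraries of 92.5 and 45.0 CPM, and for *Rnf43* (9.31 CPM) and *Znrf3* (18.0 CPM), the ligases that R-spondins hold back. *Lgr6* was also found in L-Alv-like cells at a mean of 28.7 CPM, against 1.03 CPM in L-Hor-like cells. The Frizzled receptor *Fzd7* had a mean of 73.6 CPM in basal-like cells and 2.19 in L-Hor-like cells, and *Fzd4* had 112 in endothelial-like cells. Of the Wnt receptors listed, 5 led in basal-like cells and 3 each in L-Hor-like, endothelial-like and fibroblast-like cells, and 1 had fewer than 200 UMIs. Those led by L-Hor-like cells were *Lrp5* (38.0 CPM, against 26.7 in basal-like cells), *Fzd6* (12.5 against 5.75) and *Fzd10* (9.70 against 3.34). *Wif1*, a secreted Wnt inhibitor, and *Nkd1*, a negative-feedback target of Wnt signalling, were highest in basal-like cells at 51.1 and 37.5 CPM. *Nkd1* also had a mean of 31.0 CPM in the *Mfap4* and *Igfbp2* cluster of fibroblast-like cells. The Wnt targets *Axin2* and *Nkd2* led in endothelial-like cells, at 11.5 and 13.5 CPM, against 7.26 and 10.2 in basal-like cells. *Wls*, which carries Wnt proteins to the cell surface, was highest in fibroblast-like cells at a mean of 136 CPM and stood at 59.3 in L-Hor-like cells. The antagonists *Sfrp2* and *Sfrp4* were stromal, at means of 556 and 714 CPM in fibroblast-like cells.

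Over L-Hor-like, L-Alv-like, basal-like, fibroblast-like and proliferating cells, 79 ratios of a member had enough UMIs, of which 5 were called higher and 3 lower. Over all genes the share called in the 4 main classes ran from 1.44% to 14.1% by class and comparison, and each count is read beside its own share. All genes tested had median log2 ratios between -0.26 and 0.04 in the 4 main classes, and the -0.26 was that of OVX_E2 to OVX in L-Hor-like cells.

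Estradiol was compared with vehicle by setting OVX_E2 against OVX. In L-Hor-like cells 0 of 2 members with enough UMIs were called, where 8.11% of all genes were. *Wnt4* was 56.9 CPM (41.4 to 76.4, 44 UMIs) in OVX and 40.8 CPM (35.4 to 46.8, 205 UMIs) in OVX_E2, a ratio of 0.717 (0.516 to 1.02), whose interval holds 1. *Wnt5a* was 33.6 CPM (26 UMIs) and 62.1 CPM (312 UMIs), a ratio of 1.85 (1.24 to 2.87) that stayed under 2-fold. The pair of L-Hor ligands had ratios on opposite sides of 1 in the same cells, with intervals that do not overlap. After thinning to 3000 UMIs per cell the *Wnt5a* ratio was 0.953, on the other side of 1.

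In fibroblast-like cells 1 of 6 members was called in OVX_E2 to OVX, where 4.06% of all genes were. *Wnt4* rose from 2.69 CPM (37 UMIs) in OVX to 9.48 CPM (63 UMIs) in OVX_E2, a ratio of 3.52 (2.31 to 5.43). Its level was 9.52 CPM in OVX_E2_PBDE, 9.62 in OVX_E2_P4 and 11.5 in OVX_E2_P4_PBDE, so the 4 libraries with E2 lay together above OVX. The *Mfap4* and *Igfbp2* cluster held 5.15% of fibroblast-like cells in OVX and 20.4% in OVX_E2. Within that cluster *Wnt4* had 2 UMIs in OVX and 45 in OVX_E2, a ratio of 9.64 (2.52 to 82.0) on 47 UMIs that fell short of the minimum for a call. *Rspo1* in the same cluster had 1 UMI and 24, a ratio of 10.3 (1.68 to 423), also on too few UMIs. The L-Hor marker sum in that cluster was likewise higher in OVX_E2 (204 CPM) than in OVX (67.6 CPM), and its part in the *Wnt4* ratio was not tested.

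*Wnt2* in fibroblast-like cells was 108 CPM in OVX and 158 in OVX_E2, a ratio of 1.46 (1.35 to 1.58) that was not called. The make-up of the class differed too: the *Cxcl14* and *Gas6* cluster, the lowest in *Wnt2*, was 41.3% of fibroblast-like cells in OVX and 15.4% in OVX_E2. Within that cluster the thinned share of cells with a *Wnt2* UMI was 9.43% in OVX and 20.1% in OVX_E2. It was 22.0% and 36.1% in the *Mfap4* and *Igfbp2* cluster and 32.1% and 37.2% in the *Akr1c18* and *Cxcl13* cluster. In the *Krtdap* and *Sbsn* cluster it was 41.7% and 43.9%. The part of the make-up in the *Wnt2* ratio was not tested. *Rspo1* had a ratio of 1.56 (1.10 to 2.20) and *Rspo3* of 0.830 (0.587 to 1.16) in fibroblast-like cells. In basal-like cells, where 14.1% of all genes were called, 0 members had enough UMIs for a call. *Wnt6* there was 9.73 CPM in OVX on 4 UMIs and 42.1 CPM in OVX_E2 on 40 UMIs, a ratio of 4.33 (1.57 to 16.7) on 44 UMIs. Of the wider pathway list in basal-like cells, *Nkd1* rose from 2 UMIs to 67 and *Ccnd1*, a cell cycle gene downstream of RANK, from 1 UMI to 63, with ratios of 14.5 (3.86 to 122) and 27.3 (4.72 to 1095). Cells with at least 2 UMIs of proliferation markers were 0% of basal-like cells in OVX and 15.5% in OVX_E2. Their part in the *Ccnd1* ratio was not tested. *Sfrp1* fell, with a ratio of 0.283 (0.203 to 0.391), as did *Dkk3*, another antagonist, at 0.402 (0.253 to 0.637), so that 2 genes of 17 with enough UMIs were higher and 4 lower, where 14.1% of all genes were called. *Sfrp1* is also a fibroblast gene, and the 6 fibroblast markers summed to 2854 CPM in the basal-like cells of OVX and 1321 CPM in those of OVX_E2, and their part in these ratios was not tested.

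**Figure D3:**
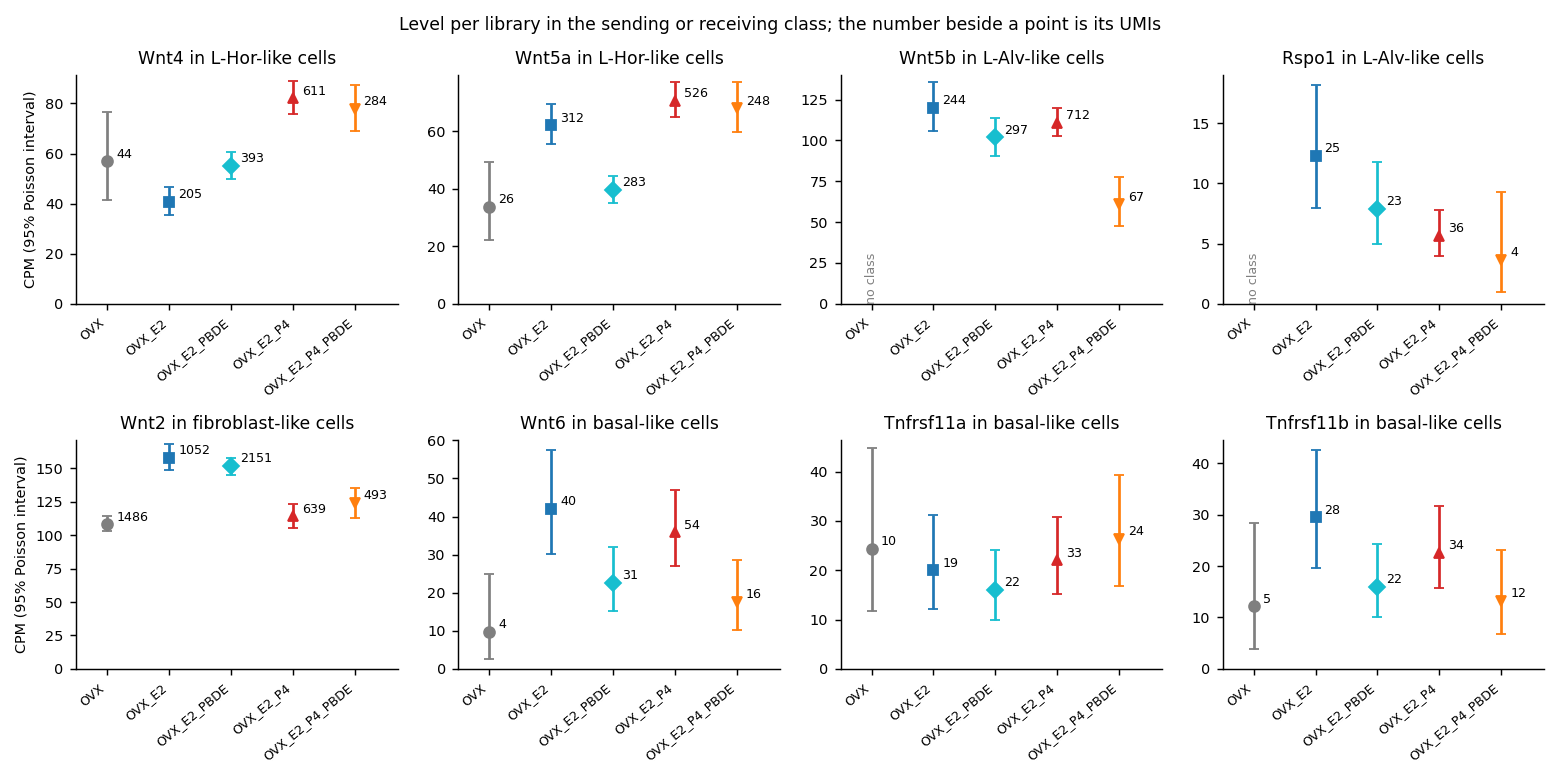
Level per library (CPM, y axis, with 95% Poisson intervals) of the members in the class named above each panel, the libraries on the x axis and the UMIs beside each point. *Wnt4* in L-Hor-like cells is 77.8 to 82.1 CPM in both libraries with P4 and 40.8 to 56.9 CPM in the other 3.

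Progesterone was compared by setting OVX_E2_P4 against OVX_E2 and, with PBDE in both, OVX_E2_P4_PBDE against OVX_E2_PBDE. In L-Hor-like cells *Wnt4* rose from 40.8 CPM in OVX_E2 to 82.1 CPM (75.7 to 88.9, 611 UMIs) in OVX_E2_P4, a ratio of 2.01 (1.71 to 2.37) that just passed the 2-fold limit and was the 1 call among 4 members, where 1.60% of all genes were called. With PBDE, *Wnt4* was 55.0 CPM (49.7 to 60.7, 393 UMIs) without P4 and 77.8 CPM (69.1 to 87.4, 284 UMIs) with it, a ratio of 1.41 (1.21 to 1.65) that was not called. Here 0 of 3 members were called and 1.85% of all genes. Both libraries with P4 lay above the 3 without, and OVX, with no hormone, lay above OVX_E2. The first ratio was 1.64 to 2.31 over 9 other ways of processing, at least 2-fold in 6 of them and above 1 in all 9, and in the mixed luminal barcodes taken alone it was 1.58 (1.38 to 1.82).

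The share of L-Hor-like cells with a *Wnt4* UMI followed the same order after thinning to 3000 UMIs. It was 16.3% in OVX, 12.6% in OVX_E2, 21.8% in OVX_E2_P4, 15.2% in OVX_E2_PBDE and 20.7% in OVX_E2_P4_PBDE. Without thinning the shares were, in that order, 32.6%, 30.6%, 48.6%, 41.5% and 34.9%, at median depths of 6540, 9525, 8982, 10462 and 5540 UMIs. The transcript of the receptor, *Pgr*, lay between 122 and 146 CPM in the L-Hor-like cells of the 5 libraries.

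*Wnt5a* in L-Hor-like cells was 62.1 CPM in OVX_E2 and 70.7 in OVX_E2_P4, a ratio of 1.14 (0.987 to 1.31), and 39.6 CPM in OVX_E2_PBDE and 68.0 in OVX_E2_P4_PBDE, a ratio of 1.72 (1.44 to 2.04). Neither was called. In proliferating cells, a mixture of luminal cells by their markers, *Wnt5a* fell from 59.7 CPM (223 UMIs) in OVX_E2 to 24.6 CPM (53 UMIs) in OVX_E2_P4, a ratio of 0.413 (0.30 to 0.559), the 1 call among 3 members where 3.28% of all genes were called. The luminal make-up of these cells moved with it: the summed L-Hor markers were 3815 CPM in OVX_E2 and 2150 in OVX_E2_P4, the summed L-Alv markers 1975 and 4932 CPM, and their part in the *Wnt5a* ratio was not tested.

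In L-Alv-like cells 1 of 4 members was called for OVX_E2_P4 to OVX_E2, where 1.99% of all genes were. *Rspo1* fell from 12.3 CPM (25 UMIs) to 5.63 CPM (36 UMIs), a ratio of 0.456 (0.267 to 0.793), but with the mixed luminal barcodes added it was 0.837 and no longer a call. *Wnt5b* in the same cells was 120 CPM and 111 CPM, a ratio of 0.925 (0.799 to 1.07), although the number of L-Alv-like cells went from 145 to 576. *Tnfrsf11a* was 12.3 CPM (25 UMIs) and 10.0 CPM (64 UMIs), a ratio of 0.811 (0.504 to 1.34), an interval that leaves out a rise of 2-fold. With PBDE, *Wnt5b* was 102 CPM without P4 and 61.0 CPM (67 UMIs) with it, a ratio of 0.601 (0.454 to 0.785) that was not called, where 2.22% of all genes were called.

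In fibroblast-like cells 0 of 6 members were called in either progesterone comparison, where 1.70% of all genes were called without PBDE and 1.97% with it. *Wnt2* had a ratio of 0.719 (0.651 to 0.794) without PBDE and 0.816 (0.738 to 0.900) with it. Both intervals leave out 1, and both ratios were under 2-fold. In basal-like cells 0 of 3 members were called without PBDE, where 2.81% of all genes were, and 0 of 2 with it, where 1.77% were. *Tnfrsf11a* in basal-like cells had a ratio of 1.10 (0.606 to 2.04) and *Wnt6* of 0.853 (0.556 to 1.32) for OVX_E2_P4 to OVX_E2.

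Among the wider pathway genes, 1 of 28 with enough UMIs was called in L-Hor-like cells for OVX_E2_P4 to OVX_E2 (1.60% over all genes), *Sfrp4*, at 49.4 CPM in OVX_E2 and 23.9 in OVX_E2_P4, a ratio of 0.484 (0.397 to 0.589). It is a stromal gene by level, at a mean of 714 CPM in fibroblast-like cells. In L-Alv-like cells *Ccnd1* fell from 271 to 134 CPM, a ratio of 0.494 (0.444 to 0.551), the 1 call among 29 (1.99% over all genes). In basal-like cells *Nkd1* fell from 70.6 to 33.3 CPM, a ratio of 0.471 (0.320 to 0.690). In proliferating cells *Id2*, a transcriptional regulator, rose from 32.9 to 75.8 CPM, a ratio of 2.30 (1.81 to 2.93). *Map3k14*, an NF-κB kinase gene, rose there from 5.62 to 13.5 CPM, a ratio of 2.40 (1.32 to 4.43). These were 2 of 22 genes with enough UMIs (3.28% over all genes). The luminal make-up of these cells, given above, moved too, and its part in these ratios was not tested.

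**Figure D4:**
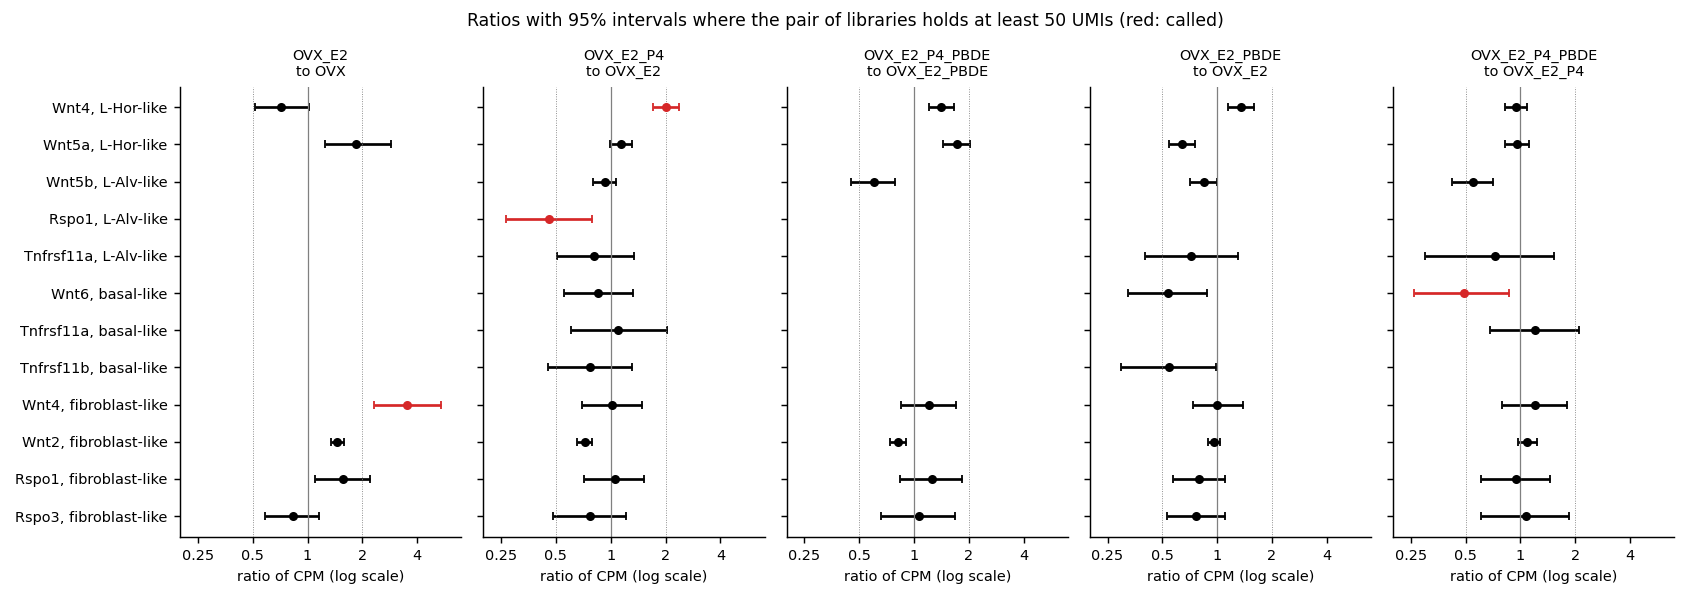
Ratios of the members' levels for the 5 comparisons (x axis, log scale, with 95% intervals), called ratios in red. Rows are a selection of members and classes, with a ratio drawn where the pair of libraries holds at least 50 UMIs. Proliferating cells and *Wnt5b* in basal-like cells are not drawn, so their called ratios are absent. Most drawn intervals lie between 0.5 and 2. The drawn calls include *Wnt4* at 2.01 in L-Hor-like cells for OVX_E2_P4 to OVX_E2 and *Wnt4* at 3.52 in fibroblast-like cells for OVX_E2 to OVX.

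PBDE was compared with matched food in the E2 libraries and in the E2 and P4 libraries. In L-Hor-like cells 0 of 3 members were called in either, where 1.75% and 3.04% of all genes were. *Wnt4* had a ratio of 1.35 (1.14 to 1.60) for OVX_E2_PBDE to OVX_E2 and 0.948 (0.821 to 1.09) for OVX_E2_P4_PBDE to OVX_E2_P4. *Wnt5a* had ratios of 0.638 (0.541 to 0.751) and 0.962 (0.824 to 1.12). With E2 alone the 2 ligands thus lay on opposite sides of 1 in the PBDE library, and with P4 added both intervals hold 1.

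In L-Alv-like cells 0 members were called of 2 with E2 alone and of 3 with P4, where 1.62% and 3.67% of all genes were called. *Wnt5b* had a ratio of 0.844 (0.710 to 1.00) with E2 alone and 0.548 (0.420 to 0.705) with P4, the latter just short of 2-fold on 67 UMIs in OVX_E2_P4_PBDE. The thinned share of L-Alv-like cells with a *Wnt5b* UMI was 28.1% in OVX_E2_P4 and 16.8% in OVX_E2_P4_PBDE. In fibroblast-like cells 0 of 6 members were called in either PBDE comparison, where 1.44% and 2.73% of all genes were, and *Wnt2* had ratios of 0.958 (0.890 to 1.03) and 1.09 (0.965 to 1.23).

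Basal-like cells gave 1 call among 3 members with E2 alone, where 6.17% of all genes were called, and 1 among 4 with P4, where 6.46% were. *Wnt5b* rose from 12.6 CPM (12 UMIs) in OVX_E2 to 34.9 CPM (48 UMIs) in OVX_E2_PBDE, a ratio of 2.76 (1.45 to 5.71), which was 1.11 on UMIs thinned to 3000 per cell. Luminal RNA moved with it: the summed L-Alv markers in basal-like cells were 53.5 CPM in OVX, 105 in OVX_E2, 250 in OVX_E2_P4, 808 in OVX_E2_PBDE and 793 in OVX_E2_P4_PBDE. The summed L-Hor markers there were 53.5, 322, 384, 851 and 1069 CPM in that order, and the part of this luminal RNA in the *Wnt5b* ratio was not tested. *Wnt4*, an L-Hor gene, had 4 UMIs in the basal-like cells of OVX_E2 and 34 in those of OVX_E2_PBDE. *Wnt6* fell from 35.9 CPM (54 UMIs) in OVX_E2_P4 to 17.6 CPM (16 UMIs) in OVX_E2_P4_PBDE, a ratio of 0.490 (0.262 to 0.869), but on UMIs thinned to 3000 per cell it was 1.48, from 7 UMIs in OVX_E2_P4_PBDE and 11 in OVX_E2_P4. *Tnfrsf11b*, the decoy, had a ratio of 0.543 (0.296 to 0.984) for OVX_E2_PBDE to OVX_E2 that was not called.

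In proliferating cells 2 of 3 members were called for OVX_E2_P4_PBDE to OVX_E2_P4, where 4.75% of all genes were. *Wnt4* and *Wnt5a* each went from 53 UMIs (24.6 CPM) to 36 UMIs (52.6 CPM), a ratio of 2.13 (1.36 to 3.32) for both, on 41 cells in OVX_E2_P4_PBDE. With Scrublet doublet calls in place of the mixed clusters the *Wnt4* ratio was 0.996, and on thinned UMIs, 4 and 6 of them, the *Wnt5a* ratio was 1.56 and no longer a call. The summed L-Alv markers of these cells were 4932 CPM in OVX_E2_P4 and 2611 in OVX_E2_P4_PBDE and the summed L-Hor markers 2150 and 2274, and their part in these ratios was not tested. In the mixed luminal barcodes, where 2.17% of all genes were called in this comparison, *Rspo1* rose from 3.28 CPM (28 UMIs) to 7.36 CPM (64 UMIs), a ratio of 2.24 (1.42 to 3.63). At a resolution of 1, mixed luminal clusters that scored higher for L-Hor markers held 246 barcodes in OVX_E2_P4 and 201 in OVX_E2_P4_PBDE. Those that scored higher for L-Alv markers held 174 and 289, and the part of this make-up in the *Rspo1* ratio was not tested. Of the wider pathway genes, *Id2*, a transcriptional regulator downstream of RANK, fell in L-Hor-like cells from 94.8 to 20.3 CPM, a ratio of 0.214 (0.166 to 0.272), and in L-Alv-like cells from 79.3 to 32.8 CPM, a ratio of 0.413 (0.286 to 0.580). *Id2* was also called lower in basal-like cells (0.255) and in T and NK-like cells (0.258, on 12 cells in OVX_E2_P4_PBDE and 34 in OVX_E2_P4). In proliferating cells *Id2* fell from 75.8 to 30.7 CPM (0.405), beside 32.9 CPM in OVX_E2. *Id2* was not called in fibroblast-like cells, nor in the mixed luminal barcodes, where 0 of 36 pathway genes with enough UMIs were called. *Lgr4* fell in basal-like cells from 123 CPM in OVX_E2 to 32.7 in OVX_E2_PBDE, a ratio of 0.266 (0.184 to 0.378).

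The other called ratios of the pathway list in L-Hor-like, L-Alv-like, basal-like and fibroblast-like cells are given next by comparison. Each has an interval that leaves out 1. Calls in finer clusters and other classes are left out here, apart from *Id2* in T and NK-like cells and *Sfrp4* in fibroblast-like clusters. For OVX_E2 to OVX, the NF-κB genes *Nfkb1* (0.491) and *Rela* (0.452) fell in basal-like cells. The same comparison had lower *Id2* (0.257), *Sfrp2* (0.492) and *Map3k14* (0.487), an NF-κB kinase gene, in L-Hor-like cells, 3 of 21 genes with enough UMIs (8.11% over all genes). In T and NK-like cells *Id2* fell too (0.384, on 13 cells in OVX_E2 and 36 in OVX), 1 of 2 genes (9.22% over all genes). In fibroblast-like cells *Pgr* rose from 2.69 to 8.43 CPM (3.13), 1 of 42 genes (4.06% over all genes). The L-Hor markers there summed to 93.1 CPM in OVX and 199 in OVX_E2, and their part in the *Pgr* ratio was not tested. Within the fibroblast-like clusters *Sfrp4* was called both ways for OVX_E2 to OVX. Its ratio was 0.199 in the *Mfap4* and *Igfbp2* cluster, 2.25 in the *Cxcl14* and *Gas6* cluster and 2.01 in the *Krtdap* and *Sbsn* cluster. For OVX_E2_P4 to OVX_E2, *Sfrp2* (0.343) and *Sfrp4* (0.478) fell in basal-like cells. With *Nkd1* above, 3 of 25 genes were lower there (2.81% over all genes). In fibroblast-like cells 0 of 39 genes were called (1.70% over all genes). The antagonists *Sfrp2* and *Sfrp4* had means of 16.4 to 35.8 CPM in every epithelial class, far under those of fibroblast-like cells. The fibroblast markers summed to 1321 and 1102 CPM in the basal-like cells of OVX_E2 and OVX_E2_P4, and the part of stromal RNA in these and the other *Sfrp2* and *Sfrp4* ratios of epithelial classes was not tested.

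With PBDE in both libraries, progesterone was compared for the same list. *Sfrp1* (0.259) and *Id2* (0.357) fell in basal-like cells, 2 of 21 genes with enough UMIs (1.77% over all genes). *Wnt7b* (0.375), a luminal Wnt ligand, and the NF-κB gene *Relb* (0.429) fell in L-Alv-like cells, 2 of 19 genes (2.22% over all genes). In L-Hor-like cells 0 of 26 genes were called (1.85% over all genes). In fibroblast-like cells *Lgr4* (2.10) and *Pgr* (2.06) rose and *Map3k14* (0.495) fell, 2 higher and 1 lower of 41 genes (1.97% over all genes). For OVX_E2_PBDE to OVX_E2, *Wnt10a* (0.432), a basal Wnt ligand, fell in basal-like cells. With *Lgr4* above, 2 of 23 genes were lower there (6.17% over all genes). *Lgr4* also fell in L-Alv-like (0.478) and fibroblast-like (0.486) cells, and in L-Alv-like cells *Pgr* fell (0.425) and *Sfrp4* rose (2.03). The calls were 1 higher and 2 lower of 23 genes in L-Alv-like cells (1.62% over all genes). In fibroblast-like cells 1 of 41 was lower (1.44% over all genes), and in L-Hor-like cells 0 of 27 were called (1.75% over all genes).

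For OVX_E2_P4_PBDE to OVX_E2_P4, the L-Hor-like cells had lower *Map3k14* (0.427), *Kremen1* (0.474), a co-receptor of Dickkopf antagonists, and *Porcn* (0.414), the enzyme that lipidates Wnt proteins. With *Id2* above, 4 of 28 genes with enough UMIs were lower (3.04% called over all genes). In L-Alv-like cells *Map3k14* (0.265) and *Tnfsf10* (0.286) fell and *Sfrp4* rose (2.99). With *Id2* above, 1 gene was higher and 3 lower of 26 (3.67% over all genes). In basal-like cells *Sfrp1* (0.196) and *Id2* (0.255) fell and *Pgr* rose (3.83), the last beside the L-Hor markers given above for these cells. These were 1 higher and 2 lower of 19 genes (6.46% over all genes). In fibroblast-like cells *Sfrp5*, an antagonist, rose from 3 UMIs to 48 (22.6), and *Dkk3* (0.465), *Nkd2* (0.463) and *Map3k14* (0.490) fell. These were 1 higher and 3 lower of 37 genes (2.73% over all genes). Over the 5 libraries *Sfrp5* had a mean of 20.1 CPM in the *Cxcl14* and *Gas6* cluster and 0.223 to 0.280 CPM in the other fibroblast-like clusters. These means include the 48 UMIs of OVX_E2_P4_PBDE, so they do not show a *Sfrp5* level of any cluster in the other libraries.

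The genes most like each member, by Pearson's r of log2(CPM + 1) over 43 class-by-library sums, are given here for orientation. They were found for 9 members with at least 200 UMIs, and the sums share libraries, so r is given as a description. *Wnt2* was most like *Mfap5* (0.967), a matrix protein gene, then *Igfbp6* and *Ptgis*, and *Rspo3* most like *Gabra2* (0.928), *Adra1b* and *Ces1d*. *Tnfrsf11a* was most like *P3h2* (0.908), *Pde4b* and *Itgb8*, *Wnt6* most like *Sbspon* (0.859), *Pappa* and *Fhod3*, and *Wnt4* most like *Hs3st6* (0.829), *Mrpl52* and *Stc2*. *Wnt5b* was most like *Rps4x* (0.817), *Rpl13* and *Dmkn*, and *Tnfrsf11b* most like *Klf16* (0.799), *Nptx2* and *Id4*. *Rspo1* was most like *Mgst1* (0.765), *Pla2g12a* and *Ntn1*, and *Wnt5a* most like *Cacfd1* (0.747), *Oplah* and *Gtf2h5*.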

How the data were processed

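Single-cell RNA libraries were prepared by the study with the 10x Genomics Chromium v2 3′ kit from digested mammary glands, 1 library for each of 5 groups, with about 4000 cells loaded. The deposited files hold UMI counts per gene and barcode, which the authors made with Cell Ranger 2.0.0 on mm10, per the submitters' processing notes, without normalization. Total counts were 19982067 to 42012988 UMIs per library.

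From these counts, 27 of 14344 barcodes were dropped for holding under 500 genes or 1000 UMIs, or over 10% mitochondrial UMIs. Each library was clustered with Seurat 5.3.0 in R 4.3.3 (10 principal components, resolution 0.3 for OVX and 0.5 for the others), with the 10 members and 74 pathway genes removed from the variable genes. Clusters were named from fixed markers. Clusters with markers of several classes, which can hold doublets, were set apart as mixed luminal or, for 23 barcodes of OVX_E2_P4_PBDE, as cells with L-Hor and fibroblast markers. Fibroblast-like and hematopoietic-like cells were clustered again over all libraries. UMIs were summed by class and library, and Poisson, conditional binomial and Clopper-Pearson 95% intervals were computed with scipy 1.17.1 in Python 3.11.15. UMIs remove PCR copies, and the intervals and the limit of 3 counts for a count of 0 cover counting error only. With 1 library per group no test between groups was run and no p-value is given. Classes of fewer than 50 cells were left out of ranges over libraries unless the number of cells is stated.

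The named genes are the 10 members, the pathway genes that met the call rule, and the 3 genes most like each member with at least 200 UMIs. Further pathway genes were named for their level by class. Calls of pathway genes were printed for the L-Hor-like, L-Alv-like, basal-like and fibroblast-like classes. *Id2* was also given for proliferating and T and NK-like cells, *Map3k14* for proliferating cells and *Sfrp4* for fibroblast-like clusters. The members, the pathway and marker lists and the comparisons were chosen with earlier results of these data known. Alternatives covered the treatment of doublets (mixed clusters added, or the 20% of barcodes with the highest Scrublet score left out, with scanpy 1.11.5), a mitochondrial maximum of 5%, a clustering resolution of 1, size factors, thinning to 3000 UMIs, all epithelial cells, and subtraction of the level in fibroblast-like cells as free RNA (in L-Hor-like cells for stromal genes). The ratio and call rule were checked on Poisson counts drawn from the L-Hor-like sums of OVX_E2 and OVX_E2_P4. Such counts hold no spread between cells or animals, and the check did not cover the other steps.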

Additional observations from a re-analysis of the deposited data

Results flagged for a closer look

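A cluster of 23 cells in OVX_E2_P4_PBDE that carried both L-Hor and fibroblast markers entered no comparison. Its *Wnt4* level was 99.7 CPM (95% Poisson interval 61.7 to 152, 21 UMIs), beside 77.8 CPM (69.1 to 87.4) in the L-Hor-like cells of the same library and 56.9 CPM (41.4 to 76.4) in those of the vehicle library OVX, and its interval overlaps both. The same 23 cells held 12 UMIs of the fibroblast ligand *Wnt2*, or 56.9 CPM (29.4 to 99.5), and 10 UMIs of *Wnt5a*, or 47.5 CPM (22.8 to 87.3). Whether these barcodes hold 1 cell or several was not tested.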

How the results depend on the processing

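No paired analysis was possible because each group is 1 library, and for the same reason no replicate could be left out. Of 54 values for the main ratios of *Wnt4* and *Tnfrsf11a* under other settings, 49 stayed within the counting interval and 5 moved outside it. With all epithelial cells, the *Wnt4* ratio of OVX_E2_P4 to OVX_E2 was 1.64 and that of OVX_E2_P4_PBDE to OVX_E2_P4 was 1.36. With Scrublet calls, *Wnt4* had a ratio of 1.18 for OVX_E2_P4_PBDE to OVX_E2_PBDE and 0.806 for OVX_E2_P4_PBDE to OVX_E2_P4. The *Tnfrsf11a* ratio of OVX_E2_P4 to OVX_E2 in L-Alv-like cells was 0.482 on thinned UMIs, from 23 and 12 UMIs. Of the ratios of other members or classes, 273 values stayed within the interval, 20 moved, and 2 called ratios crossed 1: *Wnt6* in basal-like cells for OVX_E2_P4_PBDE to OVX_E2_P4 at 1.48 on thinned UMIs, and *Wnt4* in proliferating cells for the same libraries at 0.996 with Scrublet calls. The cause was not tested.

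The number of genes called in L-Hor-like cells follows the minimum of UMIs. For OVX_E2 to OVX it was 601 at the minimum of 50, 882 at 20 and 125 at 200. For OVX_E2_P4 to OVX_E2 it was 149, 324 and 39, and for OVX_E2_P4_PBDE to OVX_E2_PBDE 161, 324 and 34. For OVX_E2_PBDE to OVX_E2 it was 160, 283 and 38, and for OVX_E2_P4_PBDE to OVX_E2_P4 271, 430 and 77. Weighting every cell equally, an alternative chosen after seeing the data, left every ratio tried within its interval, as did a mitochondrial maximum of 5% and a resolution of 1. The called ratios outside the leading class were put through the alternatives after they had been seen. Depth limits *Tnfsf11* (44 UMIs), *Wnt6* (231) and *Tnfrsf11b* (235) most.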
